A study of Mus musculus with 6 samples.

Results

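The 10 genes described here encode transcription factors and cofactors that act together in blood stem cells and in the red cell, megakaryocyte and mast cell lineages: Gata1, Gata2, Gata3, Zfpm1, Klf1, Tal1, Lyl1, Lmo2, Ldb1 and Nfe2. They were taken by name from the 18193 genes measured on the array, and all 10 were found. Where a gene had several probe sets, the brightest on average over the 6 arrays stood for it. RNA came from 2 cell populations of wild-type C57BL/6 mice, isolated by flow cytometry and lysed without any other treatment, with 3 arrays of each. Both populations were low in lineage markers and positive for Kit. LSK cells also carried Sca-1 and contain the stem cells and multipotent progenitors, while LK cells lacked Sca-1 and contain the committed progenitors. Each is a mixture of cell types in bulk, so fewer cells of a type and less RNA per cell cannot be told apart. The age, sex and number of the mice are not given in the sources used here, and the p-values therefore measure the spread between these samples, which may be partly technical.

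GATA factors are zinc finger proteins that bind the GATA sequence in DNA. Gata2 acts in stem and early progenitor cells, Gata1 takes over at many of the same sites as cells become red cells or megakaryocytes, and Gata3 is best known from T cells and innate lymphoid cells. Zfpm1, also called FOG-1, works through Gata1. Tal1 and its paralog Lyl1 are basic helix-loop-helix proteins that bind E-box sequences together with E proteins, and Lmo2 and Ldb1 bridge them to a GATA factor in one complex. Klf1 binds CACCC sequences and switches on red cell genes, and Nfe2 is the tissue-restricted subunit of a dimer with a small Maf protein.

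Promoter sequences are shown for the 2 factors that were lower in LSK, Klf1 and Gata1, and for Gata3, which was higher, because these genes carried the largest differences among the 10. RefSeq (GRCm38.p6) gave 12 windows for 8 of the 10 genes, each of the 250 bases before an annotated start, 5′ to 3′ on the gene's strand. The Klf1 window lies at chr8:84901732-84901981 (plus strand), Gata1 at chrX:7967911-7968160 (minus strand) and Gata3 at chr2:9878601-9878850 (minus strand). Capitals mark matches on either strand to 3 kinds of motif. The GATA motif was searched as AGATAA, in the form ending in the other purine as AGATAG, with the other first base as TGATAA, and with both of these changes as TGATAG. The CACCC motif was searched in its short form CCACCC and in its long form CCACACCC. The E-box was searched as CAGATG, the form that Tal1 is known to prefer, and as the palindrome CAGCTG.
Klf1: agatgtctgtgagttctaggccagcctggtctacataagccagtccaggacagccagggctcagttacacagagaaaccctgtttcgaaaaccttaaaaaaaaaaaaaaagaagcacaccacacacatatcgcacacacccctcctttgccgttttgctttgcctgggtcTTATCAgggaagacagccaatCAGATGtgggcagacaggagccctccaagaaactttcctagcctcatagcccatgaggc
Gata1: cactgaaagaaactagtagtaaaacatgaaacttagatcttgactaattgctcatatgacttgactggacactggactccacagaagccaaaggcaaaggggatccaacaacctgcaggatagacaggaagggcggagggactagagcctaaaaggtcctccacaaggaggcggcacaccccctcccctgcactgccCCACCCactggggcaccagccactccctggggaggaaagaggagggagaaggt
Gata3: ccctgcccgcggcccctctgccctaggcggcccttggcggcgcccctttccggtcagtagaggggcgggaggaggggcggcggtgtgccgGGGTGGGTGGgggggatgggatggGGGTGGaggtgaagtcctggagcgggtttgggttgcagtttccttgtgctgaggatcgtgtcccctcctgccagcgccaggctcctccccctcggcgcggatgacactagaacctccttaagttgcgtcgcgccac

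The Klf1 window held 1 GATA match, which begins 80 bases before the start, and 1 E-box match, which begins 59 bases before it. The GATA match was also part of a spaced GATA and E-box pair (CTG, then 7 to 9 bases, then GATAA, which overlaps the GATA motif), whose CTG is not part of the E-box match. Over 32851 such windows of all genes, 26.5% held a GATA match, 25.5% an E-box match and 1.98% the spaced pair. The Gata1 window held 1 CACCC match, beginning 53 bases before the start, and the Gata3 window held 3, against 30.1% of all windows with at least 1. Among the 8 genes with a window, GATA matches stood in Klf1, Tal1 and Ldb1, and CACCC matches in Gata1, Gata3, Zfpm1, Lyl1 and Ldb1. The 8 genes held no match to an Nfe2 motif (TGAGTCA as well as TGACTCA), which 4.46% of all windows held. These matches describe letters only and are not evidence of binding.

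The following facts about the arrays bear on every value. The median log2 intensity of an array lay between 2.98 and 3.09, so values near 3 are at the lower end of the range and folds measured against them are compressed. The log2 gap between the 3′ and 5′ controls for Actb and Gapdh, called the 3′ bias here, was 2.32 to 3.30 in LSK and 3.26 to 3.94 in LK. Its part in the results was not tested beyond a fit that includes it, described below. Of 8 stem cell markers, 7 were higher in LSK and 0 lower in limma, against 3.84% of all genes higher and 2.89% lower. Procr was lost without LK array 3 (limma adjusted p = 0.0608). Slamf1 was not called, with means of 3.44 in LSK and 3.40 in LK (log2). The summed intensity of the 8 was 3948 to 4905 in LSK and 301.1 to 462.1 in LK. Kit, used in both gates, read 8.55 ± 0.39 in LSK and 7.74 ± 0.35 in LK (log2, SD, n = 3; limma adjusted p = 0.124), and Ly6a, which encodes Sca-1, is not analysed here.

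Klf1 and Gata1 were lower in LSK than in LK, Gata3 and Lmo2 were higher, and the other 6 genes did not pass the threshold, an adjusted p under 0.05 in limma with Benjamini-Hochberg adjustment over all 18193 genes. These 4 of 10 stand against 6.73% of all genes tested (3.84% higher and 2.89% lower in LSK), and 3.21% of all probe sets tested singly. The median log2 difference, LSK minus LK, was 0.23 over the 10 genes and -0.02 over all genes. The populations did not overlap in 5 of the 10, namely these 4 and Nfe2, against 28.0% of all genes. Counts at an unadjusted p under 0.05 in limma are also given below. The share of all genes at that looser level is not given here and exceeds the adjusted shares. Such counts therefore cannot be read as an excess over all genes.

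**Figure D1:**
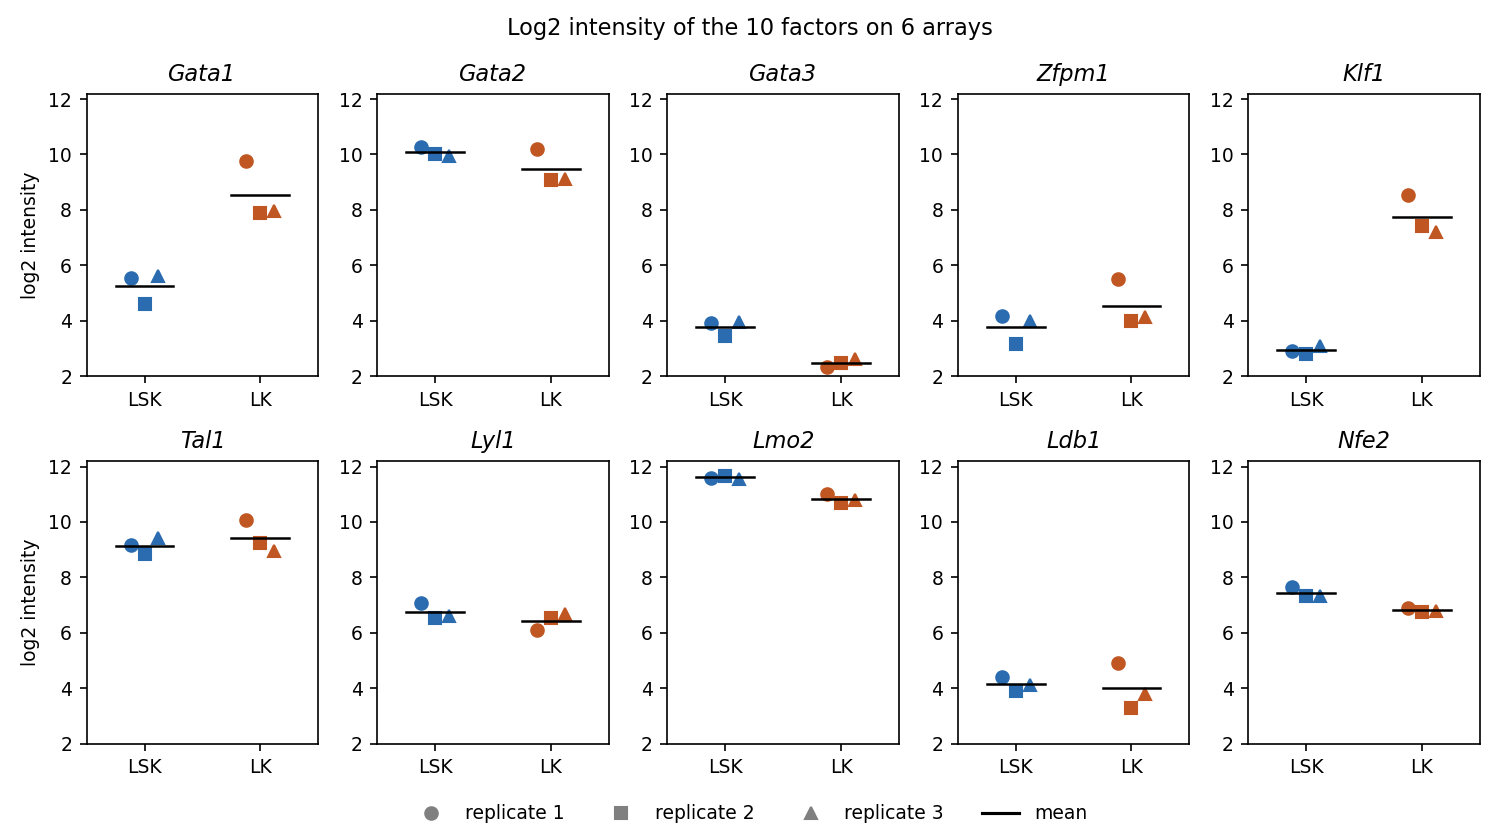
Log2 intensity (vertical axis) of each of the 10 genes in LSK (blue) and LK (orange), with symbols for the replicate number of each array and a line at the mean of 3. Klf1 lies at 2.79 to 3.09 in LSK and at 7.22 to 8.53 in LK, while Gata2, Tal1, Lyl1, Zfpm1 and Ldb1 overlap between the populations.

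Klf1, the activator of red cell genes, showed the widest separation. Its log2 intensity was 2.91, 2.79 and 3.09 on LSK arrays 1 to 3 and 8.53, 7.43 and 7.22 on LK arrays 1 to 3. All LSK arrays sat at the lower end of the range and all LK arrays well above it. The log2 difference was -4.80 (SE 0.34, 95% interval -5.61 to -3.98), a 27.8-fold higher level in LK, with a limma adjusted p of 0.00158, and LK was higher in all 3 same-numbered pairs. Of all 18193 genes, only 4 had a difference further toward LK. Klf1 was past the threshold in each of the 6 fits without 1 array (adjusted p from 0.00157 to 0.0137). With the 3′ bias as a covariate its log2 difference was -4.91 and its adjusted p 0.0666, in a range of 8.73e-05 to 0.0666 over the alternatives.

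Gata1, the master factor of red cells and megakaryocytes, followed. Its log2 intensity was 5.53, 4.62 and 5.62 in LSK and 9.78, 7.88 and 7.96 in LK, and the highest LSK array lay well below the lowest LK array. Its LSK values were above the lower end of the range. The log2 difference was -3.28 (SE 0.55, 95% interval -4.59 to -1.97), 9.73-fold higher in LK, with a limma adjusted p of 0.0214, in 3 of 3 pairs. It ranked 24 of 18193 toward LK. The call was lost without LSK array 1 (adjusted p = 0.0739), LSK array 2 (0.0618) or LK array 3 (0.0608), and with the 3′ bias covariate (log2 difference -3.45, adjusted p = 0.30). It was also lost without both arrays numbered 2 (limma adjusted p = 0.0645). The alternatives ranged from 0.00348 to 0.30.

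Zfpm1, the Gata1 cofactor, had log2 intensities of 4.19, 3.16 and 4.0 in LSK and 5.51, 3.98 and 4.12 in LK. LK array 1 was high and the other arrays overlapped. Its log2 difference of -0.76 (95% interval -1.86 to 0.35) did not pass limma (adjusted p = 0.409), although LK was higher in 3 of 3 pairs. The other Zfpm1 probe set read 2.57 ± 0.11 (SD, n = 3) in LSK and 2.60 ± 0.30 in LK, at the lower end of the range, with a difference of -0.03.

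Gata2, the GATA factor of stem cells, was bright in both populations. Its log2 intensity was 10.27, 10.005 and 9.94 in LSK and 10.21, 9.09 and 9.12 in LK. LK arrays 2 and 3 lay below all LSK arrays, while LK array 1 lay among them. The log2 difference of 0.60 (95% interval -0.15 to 1.35) did not pass limma (adjusted p = 0.335), with LSK higher in 3 of 3 pairs. Without LK array 1 the difference was 0.97 and the adjusted p 0.0395, the lowest over the alternatives, which reached 0.985. A second Gata2 probe set, at 8.50 ± 0.15 in LSK and 7.92 ± 0.60 in LK (SD, n = 3), gave nearly the same difference, 0.58.

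Gata3 was higher in LSK but near the lower end of the range throughout. Its log2 intensity was 3.90, 3.43 and 3.94 in LSK and 2.31, 2.49 and 2.62 in LK, without overlap. The log2 difference was 1.28 (SE 0.18, 95% interval 0.85 to 1.72), or 2.44-fold. LSK was higher in 3 of 3 pairs (limma adjusted p = 0.013). The call was lost without LSK array 1 (adjusted p = 0.062) or LK array 3 (0.0517) and with the 3′ bias covariate (0.17), in a range of 0.00345 to 0.17. As Gata3 is best known from lymphoid cells, the T cell, NK cell and innate lymphoid markers are given beside it. Of 7 measured, 0 differed in limma (1 higher and 0 lower at an unadjusted p under 0.05), and 6, among them Cd3d, Cd3e, Cd3g and Cd8a, averaged below 4 (log2) in LSK and in LK alike. The exception was Rora, a nuclear receptor gene, at 5.67 ± 0.59 in LSK and 4.13 ± 0.87 in LK (SD, n = 3; limma adjusted p = 0.118, and 0.0189 in the blocked fit, which adds the replicate number as a term). The summed intensity of these markers was 78.2 to 118.9 in LSK and 50.1 to 77.1 in LK. Rora, the brightest of them, made up much of that sum in LSK. The part of these markers in the Gata3 difference was not tested.

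**Figure D2:**
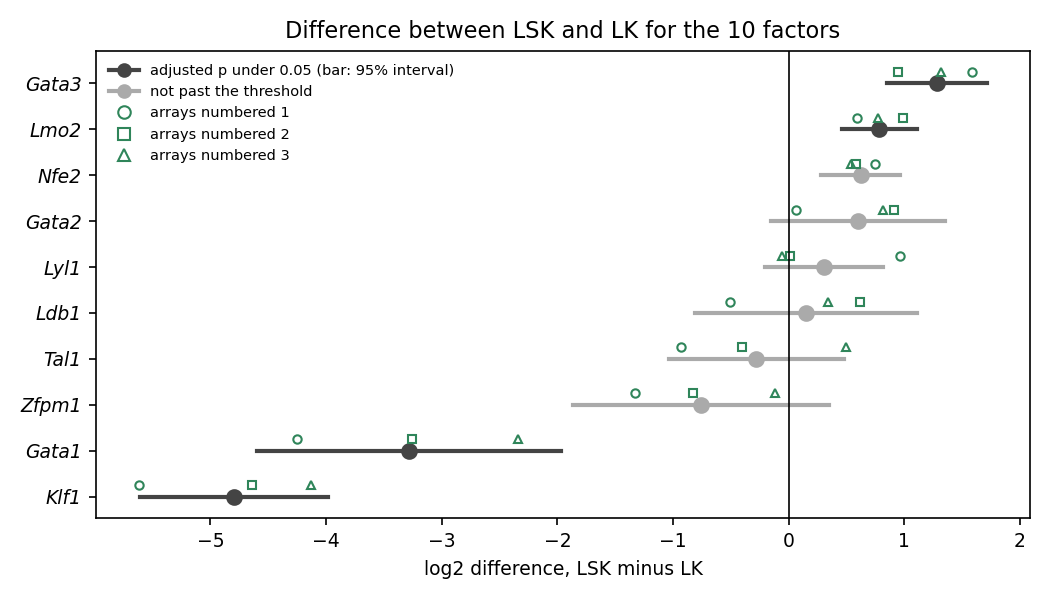
Log2 difference, LSK minus LK (horizontal axis), of the 10 genes with 95% intervals, dark where the limma adjusted p is under 0.05, and green symbols for the difference between arrays with the same number. Gata1 and Klf1 lie below -1.9 with their whole interval, Gata3 and Lmo2 lie above 0, and the interval of Nfe2 (0.28 to 0.96) lies above 0 without passing the adjusted threshold.

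The change of paralogs was compared within each array, which asks whether 2 related factors moved unequally between LSK and LK. The log2 ratio of Gata1 to Gata2 was lower in LSK by 3.88, or 14.7-fold. The LSK arrays lay at -4.75, -5.39 and -4.32 and the LK arrays at -0.43, -1.21 and -1.16, so the populations did not overlap. These ratios are of intensities and say nothing of which transcript was more abundant. The two-sided exact permutation test gave p = 0.1, the smallest that 3 arrays against 3 allow, and 0.2 after adjustment over the 4 pairs of paralogs compared. The ratio of Gata1 to Gata3 differed by -4.57 between LSK and LK (exact p = 0.1, adjusted 0.2). The ratio of Gata2 to Gata3 differed by -0.69 (exact p = 0.2, adjusted 0.267), and that of Tal1 to Lyl1 by -0.58 (exact p = 0.5, adjusted 0.5). Gata3 read 2.31 to 2.62 (log2) in LK, at the lower end of the range, so the size of both Gata3 ratios is uncertain. With 3 arrays against 3 this exact test cannot pass 0.05 for any of the 4.

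**Figure D3:**
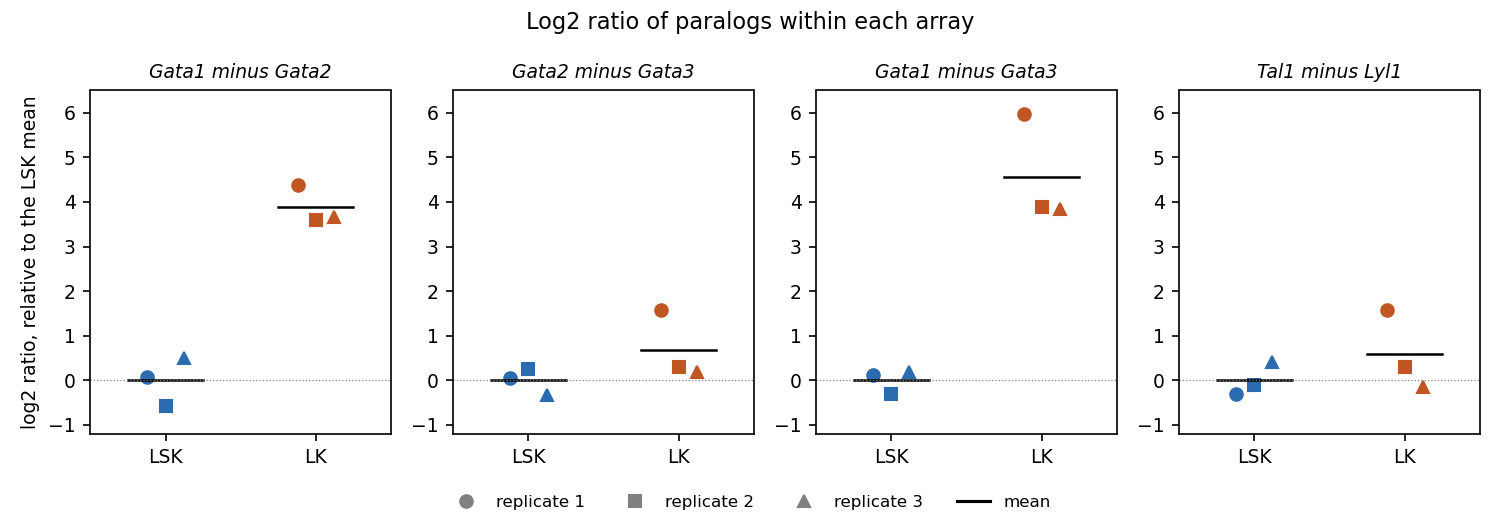
Log2 ratio of 2 paralogs within each array (vertical axis), set to 0 at the LSK mean of that ratio, for LSK (blue) and LK (orange) with lines at the means. The 3 LK arrays lie above the 3 LSK arrays for Gata1 minus Gata2 and Gata1 minus Gata3, and overlap them for the other 2 ratios.

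Lmo2, the LIM protein of the complex, had log2 intensities of 11.60, 11.67 and 11.57 in LSK and 11.0, 10.68 and 10.79 in LK. Arrays of one population lay close together and the populations did not overlap. The log2 difference was 0.79 (SE 0.14, 95% interval 0.46 to 1.11), 1.72-fold higher in LSK, with a limma adjusted p of 0.0235 and 3 of 3 pairs in that direction. The call was lost without LSK array 1 (adjusted p = 0.0875), LSK array 2 (0.0667), LK array 2 (0.0582) or LK array 3 (0.1), and with the 3′ bias covariate (0.426), in a range of 0.00468 to 0.426. Leaving out both arrays numbered 2 lost it as well (limma adjusted p = 0.0951).

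Tal1, the helix-loop-helix factor, was bright in both populations, with log2 intensities of 9.16, 8.84 and 9.43 in LSK and 10.08, 9.24 and 8.94 in LK. The arrays overlapped, and LK array 1 was the highest. The log2 difference of -0.28 (95% interval -1.03 to 0.48) did not pass limma (adjusted p = 0.674), and it was 0.05 without LK array 1 and 0.06 with array weights. Its paralog Lyl1 read 7.06, 6.55 and 6.62 in LSK and 6.10, 6.54 and 6.68 in LK. Here LK array 1 was the lowest array, and the difference of 0.30 (95% interval -0.21 to 0.82) did not pass (limma adjusted p = 0.481).

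Ldb1, the bridging protein, read 4.42, 3.92 and 4.13 in LSK and 4.92, 3.30 and 3.79 in LK. The 2 extreme values both came from LK. Its log2 difference was 0.15 (95% interval -0.81 to 1.11, limma adjusted p = 0.875), and it was -0.20 without LK array 2 and -0.38 with the 3′ bias covariate, so its direction is not settled. Ldb1, Lmo2 and Gata2 are each read by a probe set of a kind that several transcripts of 1 gene share.

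Nfe2 had log2 intensities of 7.65, 7.33 and 7.34 in LSK and 6.91, 6.75 and 6.80 in LK. All LSK arrays lay above all LK arrays. The log2 difference of 0.62 (SE 0.14), 1.54-fold, just missed the threshold (limma adjusted p = 0.0521), with LSK higher in 3 of 3 pairs. When replicate number was blocked on, limma's adjusted p was 0.0353, in a fit that called 14.4% of all genes, and it ranged from 0.0179 to 0.604 over the alternatives.

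Within LK, array 1 stood apart for several of these genes. It was the highest LK array for 8 of the 10, against 40.3% of all genes. It exceeded the mean of LK arrays 2 and 3 by 1.86 on the log2 scale for Gata1, 1.46 for Zfpm1, 1.38 for Ldb1, 1.21 for Klf1, 1.10 for Gata2 and 0.99 for Tal1. The excess was 0.27 for Lmo2 and 0.13 for Nfe2, and the value was -0.24 for Gata3 and -0.51 for Lyl1. The same array had the highest summed intensity of the erythroid targets, 10401 against 4803 and 4447 on LK arrays 2 and 3, and the lowest of the primary granule markers Mpo, Elane, Prtn3 and Ctsg, 12219 against 18880 and 23354. Its 3′ bias of 3.26 was the lowest of the LK arrays (3.94 and 3.40 on arrays 2 and 3). The part of these in the members' values was not tested.

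**Figure D4:**
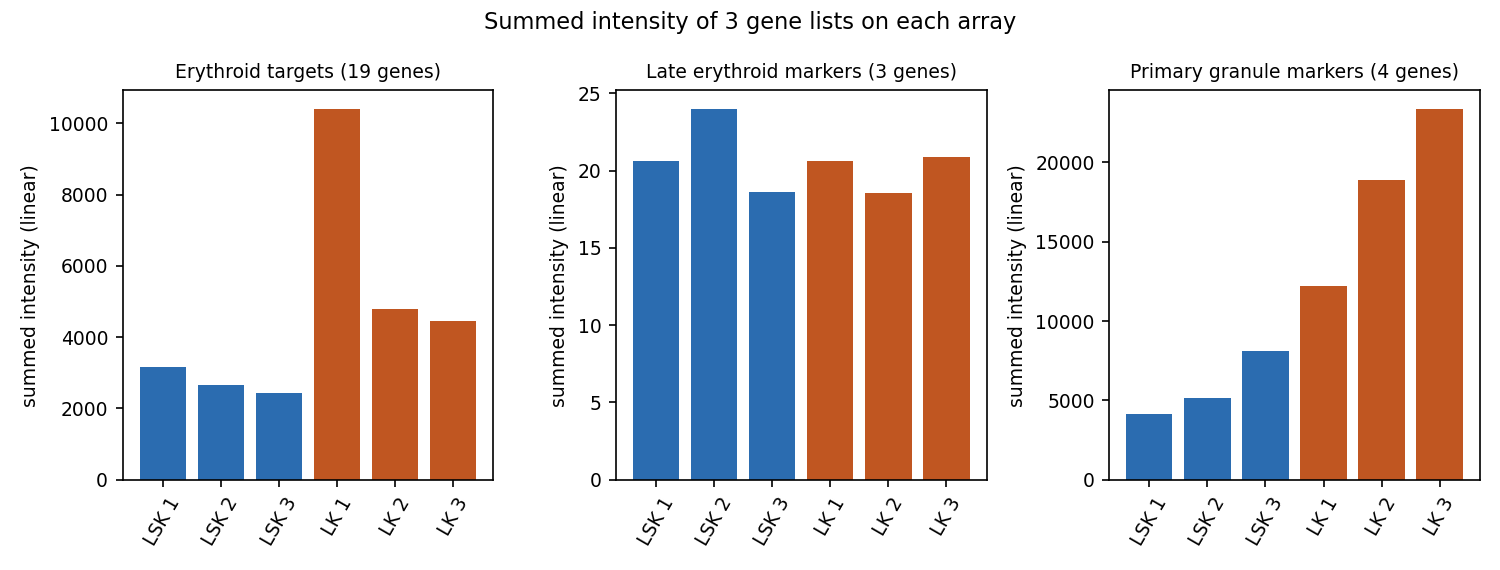
Summed linear intensity (vertical axis, starting at 0) of the measured erythroid targets, late erythroid markers and primary granule markers on each of the 6 arrays, LSK in blue and LK in orange. LK array 1 has the highest sum of erythroid targets (10401) and the lowest LK sum of primary granule markers (12219), while the late erythroid sum stays between 18.5 and 24.0. The late erythroid markers are also among the erythroid targets.

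Genes that Gata1 and Klf1 are known to activate in red cells were lower in LSK where they differed. Of 19 measured erythroid targets, 5 were lower in LSK and 0 higher in limma, against 2.89% of all genes lower, and 14 were not called. Over all 19, 11 were lower and 0 higher at an unadjusted p under 0.05, a level for which the share of all genes is not given here. The 5 were Ermap, an erythroblast membrane protein gene (log2 difference -6.35, adjusted p = 0.00134), the carbonic anhydrase gene Car1 (-6.06, 0.00627), the Kell blood group gene Kel (-3.33, 0.00387), the tetraspanin gene Tspan33 (-3.01, 0.0163) and Rhag, a Rh complex gene (-2.42, 0.00676). Tspan33 and Rhag complete that count and were chosen with their values in view. Tspan33 was lost without LSK array 1 or LSK array 2 (adjusted p up to 0.0671) and without both arrays numbered 2 (0.0774). With averaged probe sets its log2 difference was -1.41 and its adjusted p 0.0926. In the blocked fit, which called 14.4% of all genes in either direction, 9 were lower, with Epor, the erythropoietin receptor (-1.78), the water channel gene Aqp1 (-2.92), Add2 (-0.58) and Slc25a37 (-0.76) in addition. The list had a median log2 difference of -0.58, against -0.02 over all genes. The late erythroid markers Alas2, Slc4a1 and Epb42 are also among the 19 targets and so are not a separate set. They did not differ in limma (0 of 3 at an unadjusted p under 0.05). Their means were from 2.41 to 3.15, at the lower end of the range in both populations. Their summed intensity was 18.6 to 24.0 in LSK and 18.5 to 20.9 in LK. Car2, a bright target, read 11.18 in LSK and 11.31 in LK. It made up much of the summed intensity of the 19 erythroid targets in both populations. That sum was 2446 to 3173 in LSK and 4447 to 10401 in LK. Within LK, Car2 read 12.12 on array 1 and 10.91 on arrays 2 and 3 (log2).

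**Figure D5:**
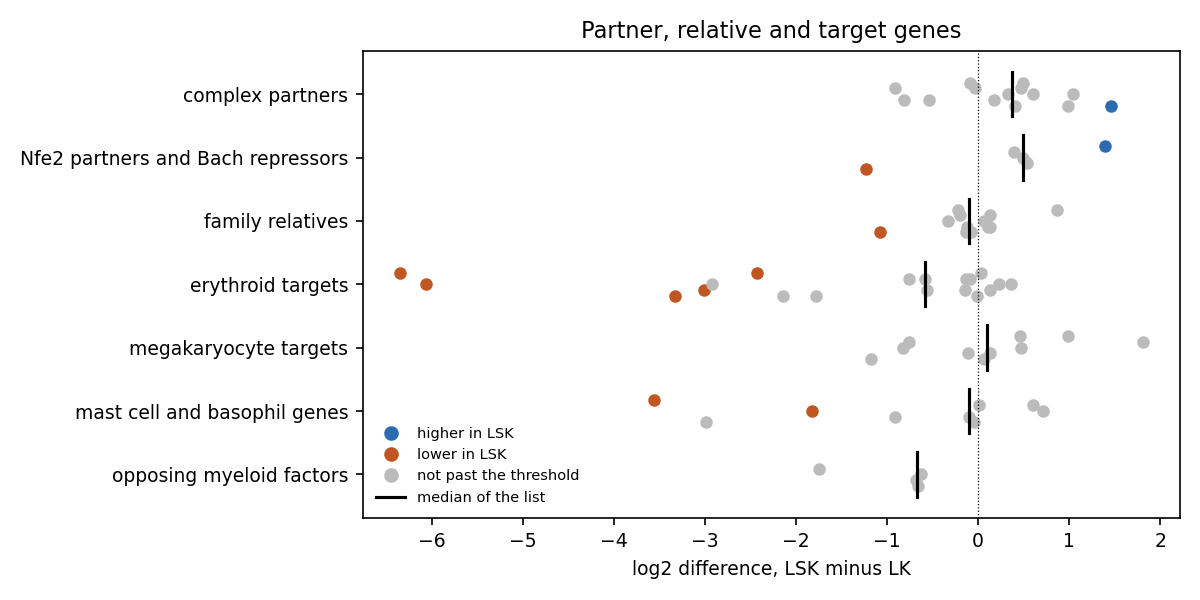
Log2 difference, LSK minus LK (horizontal axis), of every measured gene in 7 lists, blue where higher in LSK, orange where lower and grey where not past the threshold, with a line at each list's median. The erythroid targets reach -6.35 (Ermap), and their median is -0.58, while the median of the complex partners is 0.37.

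Of 14 complex partners measured, which include the E proteins, Ssbp proteins, Runx1, Fli1 and corepressors, 1 was higher in LSK and 0 lower in limma, against 3.84% of all genes higher, and 13 were not called. Over all 14, with a median of 0.37, 6 were higher and 1 lower at an unadjusted p under 0.05. The share of all genes at that unadjusted level is not given here. The called gene was Erg, an ETS factor of stem cells, at 6.20 ± 0.45 in LSK and 4.74 ± 0.14 in LK (SD, n = 3; log2 difference 1.46, limma adjusted p = 0.0189). It was lost without LSK array 1, LK array 2 or LK array 3 (adjusted p up to 0.0811). In the blocked fit Runx1 (1.04, adjusted p = 0.00953) and the corepressor gene Cbfa2t3 (0.98, adjusted p = 0.0114) also passed, 3 of 14 against 14.4% of all genes.

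Among 5 measured partners of Nfe2 and Bach repressors that share their DNA site, limma called 1 higher and 1 lower (6.73% of all genes either way) and left 3 uncalled, with a median of 0.49. Bach2 was higher in LSK (5.31 ± 0.47 against 3.92 ± 0.28, SD, n = 3; limma adjusted p = 0.0332), and was lost without LSK array 1, LSK array 3, LK array 1 or LK array 3 (up to 0.122). The small Maf gene Mafg was lower (5.06 ± 0.42 against 6.29 ± 0.33; limma adjusted p = 0.0433), and was lost whenever an array was left out, unless that array was LSK array 3 (up to 0.141). Mafg was also lost without both arrays numbered 2 (0.156) and with cyclic loess normalisation (0.0572). Arrays of the 2 populations did not overlap for any of the 5, against 28.0% of all genes without overlap.

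The relatives of the 10 genes were mostly dim. Of 12 measured, 9 averaged below 4 (log2) in LSK and in LK alike, including Gata4, Gata5, Gata6, Zfpm2, Tal2, Lmo1, Lmo3 and Ldb2. In limma 1 was lower in LSK and 0 higher, against 2.89% of all genes lower, and 11 were not called. Over all 12, with a median of -0.10, 1 was higher and 1 lower at an unadjusted p under 0.05. The called gene was Nfe2l2, the oxidative stress factor NRF2, at 6.54 ± 0.28 in LSK and 7.62 ± 0.37 in LK (SD, n = 3; limma adjusted p = 0.0453), and it was lost in each of the 6 fits without 1 array (up to 0.14). Nfe2l2 was also lost without both arrays numbered 2 (0.104). With averaged probe sets its log2 difference was -0.35 and its adjusted p 0.375.

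In the megakaryocyte lineage, of 10 measured megakaryocyte genes, 0 passed limma (2 higher and 2 lower at an unadjusted p under 0.05), with a median of 0.10. The lowest p belonged to Tbxas1, the thromboxane synthase gene, at 5.59 ± 0.04 in LSK and 3.78 ± 0.91 in LK (SD, n = 3; limma adjusted p = 0.0542). In the blocked fit Tbxas1 and the platelet receptor gene Gp9 (log2 difference 0.98) were higher and the chemokine gene Pf4 (-1.18) lower, 3 of 10 against 14.4% of all genes. Of 9 measured genes listed for mast cells and basophils, 2 were lower in LSK and 0 higher in limma, and 7 were not called. The share of all genes lower was 2.89%. The list includes Prg2 and Epx, which are genes of eosinophil granules and were not called. Over all 9, with a median of -0.10, 3 were lower and 0 higher at an unadjusted p under 0.05. Hdc, the histamine-forming enzyme, was 11.8-fold lower in LSK (adjusted p = 0.0122, lost without LSK array 1 or LK array 3, up to 0.0586). Hdc was also lost without both arrays numbered 2 (limma adjusted p = 0.065). Ms4a2, a subunit of the IgE receptor, was 3.55-fold lower in LSK (limma adjusted p = 0.0288), and was lost without LSK array 1, LSK array 2, LK array 1 or LK array 3 (up to 0.101). The block also called Cpa3 (-2.98) and Mcpt8 (-0.91), 4 of 9 in all, against 14.4% of all genes in either direction.

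Of 4 measured myeloid factors (Spi1, Cebpa, Gfi1 and Irf8), 0 passed limma (0 higher and 2 lower at an unadjusted p under 0.05), with a median of -0.67. The lowest p belonged to Cebpa (7.80 ± 0.08 in LSK and 8.49 ± 0.29 in LK, SD, n = 3; limma adjusted p = 0.0679). In the blocked fit Spi1, which encodes PU.1 (-0.66), and Irf8 (-1.74) were lower, 2 of 4 against 14.4% of all genes. Markers of other cells were as follows in limma. All 4 primary granule markers were lower in LSK, against 2.89% of all genes lower. Each was lost without LSK array 1, LSK array 2, LK array 2 or LK array 3 (limma adjusted p up to 0.148). Prtn3 was also lost without LSK array 3 and Ctsg without LK array 1. Summed intensities of the 4 were 4174 to 8091 in LSK and 12219 to 23354 in LK. None of 6 secondary granule markers passed (1 higher and 0 lower at an unadjusted p under 0.05), with sums of 12703 to 19001 and 9553 to 18197. The blocked fit called 3 of these 6 higher, against 14.4% of all genes in either direction. None of 4 B-cell markers passed (0 at an unadjusted p under 0.05), with sums of 27.6 to 74.7 and 26.1 to 38.7. Of 5 macrophage markers, C1qb was higher (lost without LSK array 1 or LK array 3, adjusted p up to 0.0571) and 0 were lower, against 3.84% of all genes higher. All 5 averaged below 4 (log2) in LSK and in LK alike (sums of 39.3 to 43.1 and 31.2 to 33.7). The part of these cells in the members' differences was not tested.

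The genes whose pattern over the 6 arrays was most like that of 3 members were found by the root mean square difference of centred log2 values. For Gata1 they were Mfsd2b, a sphingosine phosphate exporter of red cells (0.28), Tspan33 (0.36) and the copper transporter gene Atp7b (0.39). Their log2 differences were -3.59, -3.01 and -3.62. With averaged probe sets these differences were -1.83, -1.41 and -1.14, and Tspan33 did not pass (limma adjusted p = 0.0926). Mfsd2b passed limma (adjusted p = 0.0139) but was lost without LSK array 1 (0.0585) and without both arrays numbered 2 (0.0514). For Klf1 they were the carboxylesterase gene Ces2g (0.43), the sodium pump subunit gene Atp1b2 (0.45) and Pklr, the red cell pyruvate kinase gene (0.50). For Gata2 they were Dcaf12l1 (0.12), the lipin gene Lpin1 (0.13) and the efflux pump gene Abcg2 (0.13), none past the threshold (limma adjusted p from 0.173 to 0.235). Likeness over 6 arrays is a description, since all of these values come from the same 6 arrays.

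With the 3′ bias as a covariate, 0 of the 10 genes passed limma, against 0.137% of all genes. At an unadjusted p under 0.05 there were 4 of the 10. The covariate was higher in LK on average and takes up 1 of the few degrees of freedom of 6 arrays. The differences of Klf1, Gata1, Gata3 and Lmo2 in that fit were -4.91, -3.45, 1.49 and 0.64.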

How the data were processed

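Sorted mouse LSK and LK cells gave RNA that was linearly amplified and read on Affymetrix mouse arrays, per the labels' protocols. Each deposited value is the linear intensity of 1 probe set on 1 array. The submitters' processing notes name RMA, affy and R 2.11.0. RMA usually makes array distributions alike, which hides any change common to most genes. The deposited arrays were not fully alike. The upper quartile of linear intensity was 22.1 on LSK array 2 and 20.8 on LK array 2. On the other arrays it was 24.3 to 25.8. The part of this gap in the results was not tested beyond the renormalised fits and the fit without both arrays numbered 2. The genome build is not given in the sources used here.

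Of 45101 probe sets, 64 controls were left out, 34945 carried 1 symbol, 932 several, and 9160 were unnamed here. Symbols were updated through RefSeq gene identifiers (34741 matched), giving 18193 genes. The log2 values went into limma 3.58.1 (R 4.3.3), with lmFit on population alone, then eBayes and two-sided tests. The code was tested on simulated data. Folds divide the higher level by the lower, SDs are over 3 arrays, and the number of arrays limits precision. The members and lists were chosen with earlier results of these data known. The rule names all members, the 3 largest differences past the threshold in each direction of each of 7 lists (73 of 80 genes measured), or the lowest p where none passed, and the 3 nearest patterns of Gata1, Gata2 and Klf1. Of 42 marker genes in 7 further lists, 37 were measured. Genes called with the replicate block, and those named as examples, were added after their values were seen.

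Samples with the same number deviated together (correlation across genes 0.42, 0.43 and 0.27). Same-numbered samples were therefore compared as pairs in the counts of direction, in the blocked fit and in the sign-flip test. The main limma fit and the exact permutation test did not use the number. The pairing rests on the data, as the labels do not say what the number stands for. The blocked fit adds this number as a term and is given where it changes a result. No pair of arrays was identical (0 of 15). The alternatives were this replicate block, quantile and cyclic loess renormalisation, a filter on genes under a log2 of 4 in both populations, averaged probe sets, trend and robust variances, array weights, the 3′ bias covariate, leaving out each array in turn and leaving out both arrays numbered 2.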

Additional observations from a re-analysis of the deposited data

How the results depend on the processing

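Of 1225 genes past the threshold, the count became 2617 with the replicate block, 2606 with array weights, 25 with the 3′ bias covariate, 537 without both arrays numbered 2, and 306 to 1269 without 1 array. It was 1671 with quantile normalisation, 1666 with loess and 1565 with the filter on dim genes. With trend and robust variances it was 1534, and with averaged probe sets 973. Members higher in LSK (2) became 3, with Nfe2 added, with the block, quantile or loess normalisation, averaged probe sets or array weights. They became 1 with the filter on dim genes, which left Gata3 untested, 0 with the covariate, 1 without both arrays numbered 2 and 0 to 3 without 1 array. Members lower in LSK (2) became 0 with the covariate, 1 without both arrays numbered 2 and 1 to 2 without 1 array.

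Complex partners higher in LSK (1) became 3 with the block, 0 with the covariate, 2 with quantile or loess normalisation, the filter, trend and robust variances or array weights, and 0 to 2 without 1 array. Those lower (0) became 1 with quantile normalisation or the filter. Nfe2 partners higher (1) became 2 with loess, 3 with array weights, 0 with the covariate and 0 to 1 without 1 array, and those lower (1) became 0 with loess, the covariate or without both arrays numbered 2, and 0 to 1 without 1 array. Family relatives higher (0) became 0 to 1 without 1 array, and those lower (1) became 0 with averaged probe sets, the covariate, without both arrays numbered 2 and without any 1 array. Erythroid targets lower (5) became 9 with the block, 8 with trend and robust variances or array weights, 0 with the covariate and 4 to 7 without 1 array. They became 7 with the filter, 6 with quantile or loess normalisation, and 4 with averaged probe sets or without both arrays numbered 2. Megakaryocyte genes higher (0) became 2 with the block, loess, the filter or array weights, 1 with quantile normalisation, trend and robust variances or without both arrays numbered 2, and 0 to 2 without 1 array. Those lower (0) became 1 with the block, array weights or without both arrays numbered 2, and 0 to 1 without 1 array. Mast cell and basophil genes lower (2) became 4 with the block, 0 with the covariate, 1 without both arrays numbered 2 and 0 to 3 without 1 array. They became 3 with the filter, trend and robust variances or array weights. Myeloid factors lower (0) became 2 with the block or array weights and 0 to 1 without 1 array.

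The sign turned for Tal1 with array weights (0.060) and without LK replicate 1 (0.052, against -0.52 without LK replicate 3), for Ldb1 with the covariate (-0.38), without LK replicate 2 (-0.20, against 0.61 without LK replicate 1) and without both arrays numbered 2 (-0.081), and for Lpin1 with averaged probe sets (-0.034). Among the members the replicate block changed no call other than that of Nfe2. No paralog ratio changed sign in the alternatives run. The cause of these changes was not tested. A count that falls without an array comes from a fit on fewer samples.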

Other observations

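Lyl1 and Klf1 lie near each other on chromosome 8, with 8 protein-coding genes between them in RefSeq (GRCm38.p6). Of these, 7 were measured, and 0 passed limma (3 at an unadjusted p under 0.05). Their log2 differences, LSK minus LK, ranged from -0.94 for Farsa, a subunit of a tRNA synthetase, to 0.65 for Nfix, a nuclear factor I gene, with a median of -0.41. Calr, the calreticulin gene, had a difference of -0.48. Klf1 at -4.80 lay outside that range and Lyl1 at 0.30 inside it. This stretch was chosen after its values were seen.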
